A study of Mustela putorius furo with 10 samples.

Results

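Chromatin modifier genes were studied in blood cells of ferrets kept in the cold, as 43 of the 26303 genes tested. They were taken by gene name, under a rule set with earlier results of these data known. The RefSeq ferret symbol of the target sequence had to begin with KAT2 to KAT8, KMT, KDM, HDAC, SETD, SMARC, BRD or ARID, or be EPC1 or EPC2. The gene also had to be measured above background. The RefSeq gene table holds 86 such symbols, of which 47 were matched to a target sequence on the array and 4 of these (HDAC9, HDAC11, KAT2A and SMARCD1) were too dim. The 39 symbols without a match, among them KAT6A, SMARCA2, ARID1A and KMT2A to KMT2D, are not analysed here. By role, the 43 members were 10 writers, 16 erasers, 8 remodellers and 9 readers and scaffolds. For 42 of them at least 1 probe was well above background on all 10 arrays, and the probes of the remaining gene, KDM5C, were so on 5 to 9 arrays.

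RNA came from peripheral blood mononuclear cells (PBMC) of male ferrets aged 3 months, isolated on a Ficoll gradient, with 1 array for each ferret. The 6 control ferrets were kept at 22 °C and the 4 cold ferrets at 4 °C for 1 week, both with free access to food and water and with equal periods of light and dark. The cold ferrets were housed individually, and the housing of the control ferrets is not given in the sources used here. On each 2-colour array the RNA of 1 ferret carried the green dye Cy3 and a reference pool of ferret RNA the red dye Cy5. All values below are log2 ratios of Cy3 to Cy5 or differences between such ratios, so that 0 means a signal equal to that of the pool and not an absent transcript. Means are given ± SD over the 6 control or the 4 cold arrays, and changes are cold minus control ± standard error (SE).

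DNA in the nucleus is wrapped around histones, and enzymes mark these proteins to set how accessible a gene is. Writers add the marks: the KAT enzymes add acetyl groups and most KMT and SETD enzymes methyl groups, for the most part to lysines. Erasers take the same marks off, the HDAC enzymes acetyl groups and the KDM enzymes methyl groups, and some of the enzymes in both groups also act on proteins other than histones. Remodellers use ATP to slide or evict histones, readers bind marked histones or DNA, and scaffolds such as EPC1 hold a complex together. In blood cells these genes are known for their part in lineage choice and in the activation of lymphocytes and myeloid cells.

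None of the 43 members passed the adjusted threshold of 0.05 (limma, Benjamini-Hochberg over all genes tested), nor did any of the 26303 genes, and the lowest adjusted p of a member was 0.0736. At an unadjusted limma p under 0.01, the threshold of the study's methods, 3 members were lower in the cold and 0 were higher, where 3.43% of all genes were lower and 5.21% higher. Those 3 members, 6.98% of the list, were the demethylase gene KDM5B, the scaffold gene EPC1 and the co-repressor gene ARID4B. With the same log2 ratios, the methods' t-test called 2 members lower and 0 higher at its threshold, beside 2.53% of all genes lower and 4.03% higher, and 0 after Benjamini-Hochberg adjustment. At an unadjusted p under 0.05, 9 members were lower and 1, the acetyltransferase gene KAT5, was higher, against 12.5% of all genes lower and 12.2% higher. The 9 lower members were 20.9% of the list.

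The 2 groups did not overlap for 5 members (KDM5B, EPC1, ARID4B, KAT6B and SMARCAD1), with all cold values under all control values in each, and the reverse order occurred for 0 members. Over all genes, 2.15% were lower without overlap and 3.07% were higher without overlap. The median change of the 43 members was -0.02, beside -0.01 over all genes, and 53.5% of the members were lower, beside 52.0% of all genes. For 33 members the change was under 0.2 in size, and for 2 (ARID4B and SMARCA1) it was over 0.5.

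**Figure D1:**
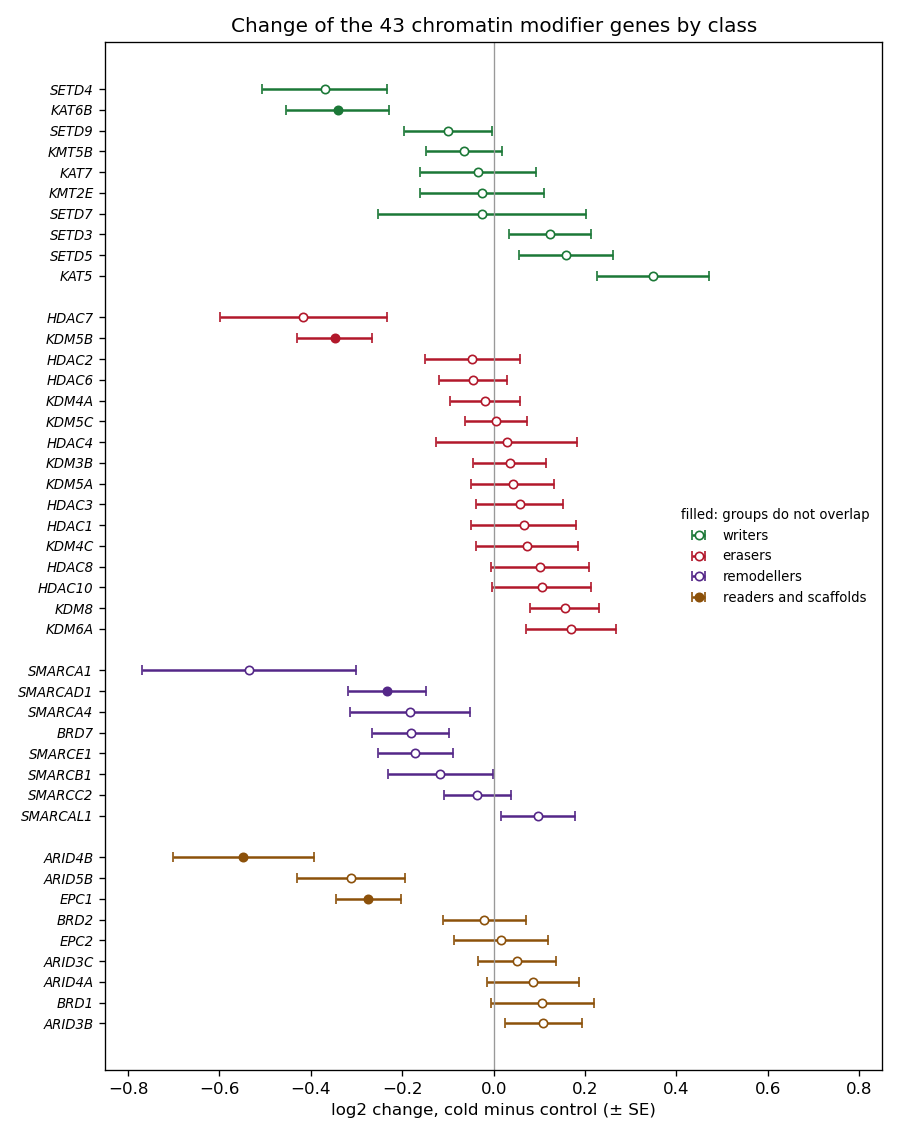
Log2 change, cold minus control, ± SE of the 43 chromatin modifier genes (limma, 6 control and 4 cold arrays), grouped by class and ordered by size. Filled points mark the 5 genes whose groups do not overlap, and 7 of the 8 remodellers lie left of 0.

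The share of lower members depended on how the arrays were scaled. It was 74.4% with the intensities processed by the scanner software, 83.7% with each array centred on its median, 69.8% with Cy3 alone and 67.4% in the deposited value table. Median centring also moved the median of all genes, to -0.43, and the processed intensities moved it to -0.10. Below the median of all genes under the same scaling lay 23 members in the main setting and 28, 28, 27 and 29 under those 4 scalings, in the order given.

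Markers of several blood cell types also stood higher or lower on the cold arrays, although none of the 31 measured passed the adjusted threshold (lowest limma adjusted p = 0.0576). Of the neutrophil markers, 6 of 10 were measured and all 6 were higher in the cold (median change 0.96), with a summed level (log2 of the summed ratios) of 2.95 to 3.85 in control and 4.32 to 4.83 in cold arrays. All 6 measured platelet markers of 7 were higher (median 0.87; summed level 2.55 to 4.15 in control and 3.49 to 4.63 in cold), as were all 4 measured monocyte markers of 5 (median 0.57; 2.66 to 3.24 and 3.08 to 4.25). All 4 measured erythroid markers of 8 were lower (median -0.74), with summed levels of 2.20 to 3.27 in control and 1.44 to 2.00 in cold arrays.

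Among lymphocyte markers, 5 of the 6 T cell markers were lower (median -0.32; summed level 2.72 to 3.00 in control and 2.07 to 2.86 in cold), and so were all 3 measured B cell markers of 5 (median -0.31; 1.43 to 2.90 and 1.76 to 2.50). The 2 measured NK cell markers of 5 had a median change of 0.06, with summed levels of 1.22 to 1.83 and 1.06 to 1.81. The labelled cell type thus has its T cell, B cell and monocyte markers on the arrays, beside neutrophil, platelet and erythroid ones. In RNA of mixed cells, fewer cells of a type and less RNA per cell cannot be told apart, and the part of these markers in the changes of the chromatin modifier genes was not tested. The reference signal also differed: the median Cy5 intensity of an array was 44 to 80 in control and 48 to 152 in cold, and its part was not tested either.

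The 10 writers had a median change of -0.03, with 7 lower and 3 higher, 0 of them at an unadjusted limma p under 0.01. At one under 0.05, 2 (20%), KAT6B and SETD4, were lower and 1, KAT5, was higher, beside 12.5% and 12.2% of all genes. Without control replicate 2 or cold replicate 4, 5 were lower and 5 higher, with a median of 0.01 in the latter case. Below the median of all genes lay 7 in the main setting and 6, 7, 6 and 6 with processed intensities, median centring, Cy3 alone and the deposited table. KAT6B, which encodes a lysine acetyltransferase that acts on histone H3, had control log2 ratios from 0.15 to 0.44 with a median of 0.17, and cold ratios of 0.12, -0.18, -0.36 and 0.06. All 4 cold arrays were below the lowest control array, cold replicate 1 by the least. The group means were 0.25 ± 0.14 and -0.09 ± 0.22, which is 1.27-fold lower in the cold (change -0.34, SE 0.11, limma adjusted p = 0.12; two-sided exact permutation p = 0.00476, the smallest that 210 splits of the arrays allow). Its 4 probes, all of 1 target sequence, were lower by between 0.04 and 0.57. With Cy3 alone its change was -0.65 and its adjusted p 0.0474, the one of 22 alternatives in which it passed 0.05, under a fit in which 741 of all genes (2.82%) also passed.

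KAT5, known as TIP60 and the catalytic subunit of the NuA4 acetyltransferase complex, was the one member higher at an unadjusted p under 0.05. Its control ratios ran from 0.02 to 0.41 with a median of 0.20, and its cold ratios were 0.68, 0.21, 0.56 and 0.80. Cold replicate 2 lay within the control range and the other 3 cold arrays above it. The means were 0.21 ± 0.15 in control and 0.56 ± 0.25 in cold, a 1.27-fold higher level (change 0.35, SE 0.12, limma adjusted p = 0.131, exact permutation p = 0.0333). All 16 of its probes were higher, by 0.16 to 0.55. Without cold replicate 2 the change was 0.47 and the adjusted p 0.0436, under a fit in which 1272 of all genes (4.84%) also passed 0.05, against 0 with all arrays. Its change was smaller with median centring (0.17), Cy3 alone (0.20) and without cold replicate 4 (0.27), and its unadjusted limma p was then above 0.05, as it was with the processed intensities (0.42).

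SETD4, a methyltransferase gene, had control ratios from -0.93 to -0.24 with a median of -0.38, and cold ratios of -1.03, -0.76, -0.67 and -0.90. Control replicate 2, the lowest control array, lay among the cold arrays and the other 5 control arrays above them. The change was -0.37 (SE 0.14, limma adjusted p = 0.142), and it was 0.06 in the deposited value table, where its sign turned. Without cold replicate 1 it was -0.31, with an unadjusted p above 0.05. The other writers all had changes under 0.2 in size. SETD5 and SETD3 were at 0.16 and 0.12, and SETD9, KMT5B, KAT7, KMT2E and SETD7 at -0.10 to -0.03.

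**Figure D2:**
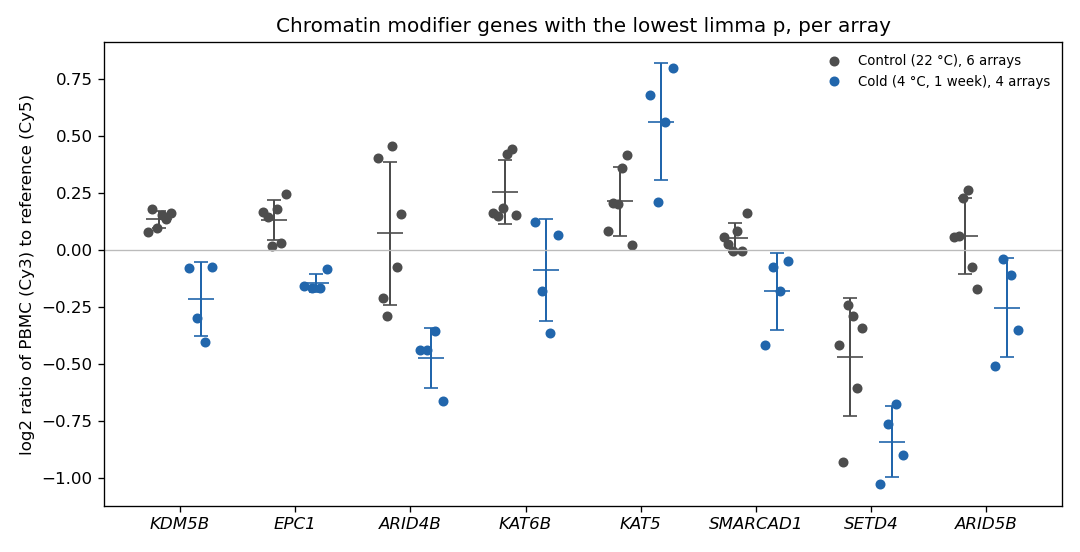
Log2 ratio of PBMC (Cy3) to reference (Cy5) on each array for the 8 chromatin modifier genes with the lowest limma p, in control (grey, 6 arrays) and cold (blue, 4 arrays), with the mean as a bar and the SD as whiskers. KDM5B, EPC1, ARID4B, KAT6B and SMARCAD1 do not overlap between groups, and KAT5 is the one gene of the 8 with a higher cold mean.

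The 16 erasers had a median change of 0.04, with 5 lower and 11 higher, 1 lower at an unadjusted p under 0.01 and 2 under 0.05. Those 2 were 12.5% of the erasers, the same share as over all genes. The lower share of 31.2% became 62.5% with the processed intensities, 81.2% with median centring, 8 of 16 genes with Cy3 alone and 68.8% in the deposited value table, and 8 of 16 were lower without cold replicate 3, so that the sign of the erasers as a group was not stable. Demethylases (8 genes, median 0.04) and deacetylases (8 genes, median 0.04) had like medians, and the lowest member of each was KDM5B and HDAC7, respectively.

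KDM5B encodes an enzyme that removes methyl groups from histone H3 at gene promoters. Its control ratios ran from 0.08 to 0.18 with a median of 0.14, and its cold ratios were -0.08, -0.30, -0.40 and -0.08. No cold array reached the control range, and cold replicates 2 and 3 were the lowest. The means were 0.13 ± 0.04 and -0.22 ± 0.16, 1.27-fold lower in the cold (change -0.35, SE 0.08, limma adjusted p = 0.0736, exact permutation p = 0.00476). All 12 probes were lower, and the change was -0.28 or lower in each of the 22 alternative settings.

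The 3 target sequences of KDM5B differed in size. The first had a change of -0.54 (SE 0.11) and the others of -0.26 (SE 0.10) and -0.24 (SE 0.09), and only for the first did cold and control not overlap. Its paralogs KDM5A (change 0.04, SE 0.09) and KDM5C (0.00, SE 0.07) had changes near 0 in the main setting. Over the alternative settings KDM5A ran from -0.83 to 0.10 and KDM5C from -0.07 to 0.49, beside -1.01 to -0.28 for KDM5B. Within each array, KDM5B less KDM5C was -0.05 to 0.11 in control and -0.65 to -0.15 in cold, without overlap, while KDM5B less KDM5A was -0.41 to -0.22 in control and -1.06 to -0.39 in cold, with overlap.

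HDAC7, a class IIa deacetylase gene known for its part in T cells, had a control mean of -0.59 ± 0.23 and cold ratios of -0.75, -0.57, -1.46 and -1.26. Cold replicates 3 and 4 were below all control arrays and cold replicates 1 and 2 within their range. The change was -0.42 (SE 0.18, limma adjusted p = 0.191), and the part of T cells in it was not tested. Without cold replicate 3 the change was -0.27, and the unadjusted p was above 0.05 without any 1 of cold replicates 3 and 4 or control replicates 1, 2, 3, 4 and 6. The 6 T cell markers had changes from -0.59 to 0.01. The class I deacetylases HDAC1, HDAC2, HDAC3 and HDAC8, most of which work in co-repressor complexes, had changes of 0.07, -0.05, 0.06 and 0.10. Among the demethylases, KDM8 (0.16, SE 0.08) and KDM6A (0.17, SE 0.10), the latter an eraser of a repressive methyl mark on histone H3, had the highest changes, with adjusted p of 0.231 and 0.307 in limma. KDM6A was -0.21 with the processed intensities and -0.11 with median centring, and KDM8 was -0.19 with median centring.

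**Figure D3:**
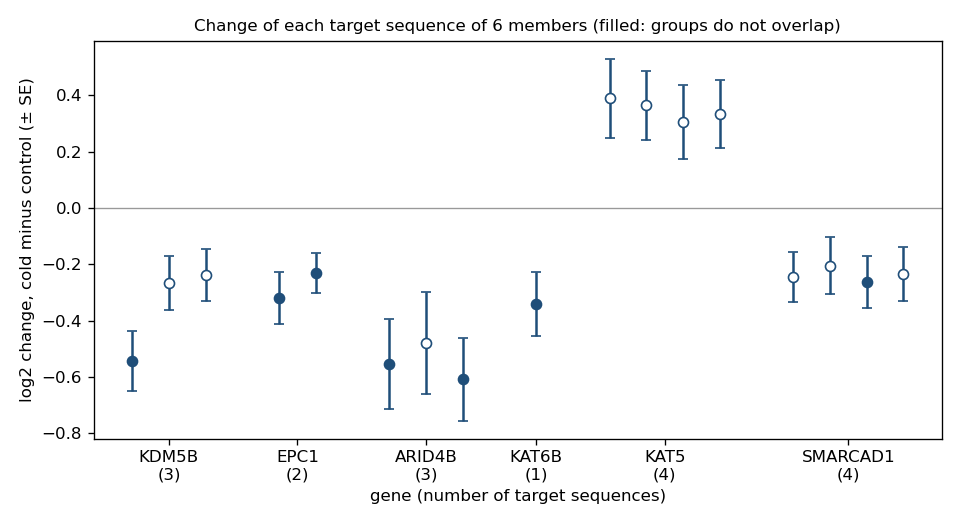
Log2 change, cold minus control, ± SE of each target sequence of 6 chromatin modifier genes, with up to 4 probes in each sequence. Filled points mark sequences whose cold and control arrays do not overlap. The first KDM5B sequence (-0.54) lies well below the other 2, whereas the 4 KAT5 sequences lie between 0.31 and 0.39.

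The 8 remodellers had the lowest class median, -0.18, with 7 lower and 1 higher. Under processed intensities and median centring 8 were lower, and without cold replicate 3 it was 6, with a median of -0.10. Below the median of all genes under the same scaling lay 7 in the main setting, 6 with processed intensities and 7 with median centring. Of the 8 remodellers, 0 were lower at an unadjusted limma p under 0.01, beside 3.43% of all genes. At one under 0.05, 2 (25%), SMARCAD1 and SMARCA1, were lower, beside 12.5% of all genes. Relative to the median of all genes the class median was -0.17 in the main setting, and from -0.47 to -0.16 over 5 other scalings of the arrays, and it stayed below 0 with each array left out (-0.19 to -0.10). The difference between classes was not tested, since the genes of a class are not replicates.

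As an array score, the median over the 8 genes of the difference from each gene's control mean, the remodellers had 0.04, 0.04, 0.10, 0.03, -0.08 and -0.02 in control replicates 1 to 6 and -0.09, -0.04, -0.24 and -0.17 in the cold ones. Cold replicates 1, 3 and 4 were below all control arrays, and cold replicate 2 was above control replicate 5. For the readers and scaffolds the scores ran from -0.06 to 0.09 in control and from -0.10 to -0.02 in cold, with cold replicates 2 and 4 below all control arrays. Writers ran from -0.07 to 0.06 in control and from -0.13 to 0.10 in cold, and erasers from -0.08 to 0.05 and from -0.03 to 0.13.

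**Figure D4:**
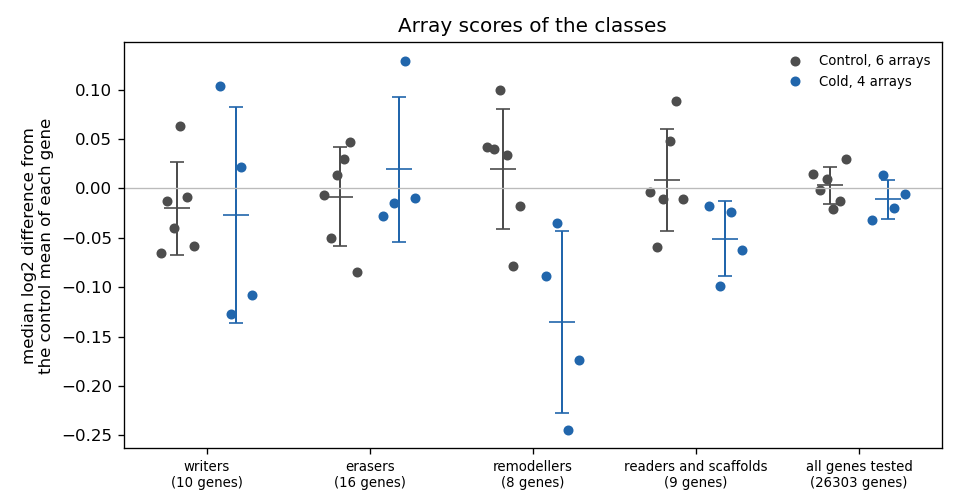
Array scores of the 4 classes and of all genes tested: the median over genes of the log2 difference from each gene's control mean, for control (grey, 6 arrays) and cold (blue, 4 arrays), with mean and SD. The cold scores of the remodellers run from -0.24 to -0.04, while the scores of all genes lie between -0.03 and 0.03.

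SMARCAD1, an ATPase known for its part in keeping silent chromatin through replication, had control ratios from -0.01 to 0.16 with a median of 0.04, and cold ratios of -0.42, -0.08, -0.18 and -0.05. The groups did not overlap, with cold replicates 2 and 4 close under the control arrays. The change was -0.23 (SE 0.09, limma adjusted p = 0.14, exact permutation p = 0.00476), and all 13 probes of its 4 target sequences were lower. The change was -0.15 without cold replicate 1, with an unadjusted p above 0.05. In the deposited value table it was 0.19, in the other direction. SMARCA1, an ATPase of the ISWI family, had a change of -0.54 (SE 0.23, adjusted p = 0.188 in limma) from only 2 of its 16 probes. Control replicate 5 (-1.28) was its lowest array of all. Its ratios were -0.29 to -0.09 in control replicates 1, 2, 3 and 6, where the median Cy5 intensity was 44 to 49. In control replicates 4 and 5 they were -0.73 and -1.28, with Cy5 at 62 and 80. Cold replicates 1 to 4 had -1.24, -0.53, -1.12 and -1.10, with Cy5 at 152, 48, 98 and 92. The part of the reference signal in its change was not tested. The change of SMARCA1 was -0.21 with Cy3 alone and -0.18 in the deposited table, and with 1 array left out its unadjusted p was above 0.05 without any 1 of 4 control and 3 cold arrays.

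The 5 members that encode subunits of the SWI/SNF complexes all had changes below 0, of -0.18 for the ATPase gene SMARCA4 (SE 0.13), -0.18 for BRD7 (SE 0.08), -0.17 for SMARCE1 (SE 0.08), -0.12 for SMARCB1 (SE 0.11) and -0.04 for SMARCC2 (SE 0.07). SMARCC2 was the one member with saturated spots, up to 50% of those of a probe on an array. Without cold replicate 3 the changes of SMARCA4 and SMARCB1 were -0.06 and -0.05 and that of SMARCC2 was 0.02, above 0. None of the 5 had an unadjusted p under 0.05, and the lowest adjusted p, that of BRD7, was 0.209 in limma. For BRD7 the control ratios were 0.22 to 0.58 and the cold ones 0.33, 0.24, 0.19 and 0.25, so that cold replicates 1, 2 and 4 lay within the control range. The 1 remodeller that was higher, SMARCAL1, which acts at stalled replication forks, had a change of 0.10 (SE 0.08), and its sign turned with the processed intensities (-0.08), median centring (-0.47) and the deposited table (-0.08).

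**Figure D5:**
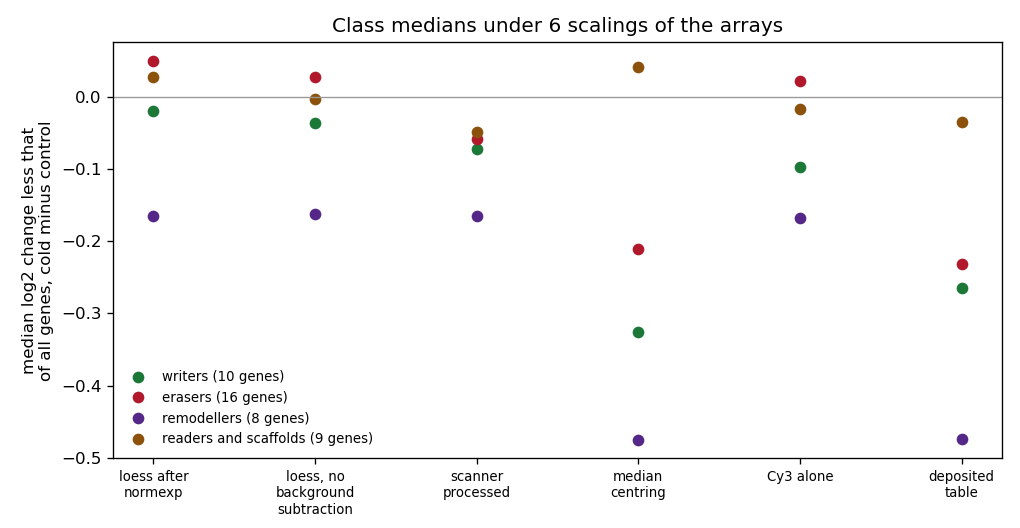
Median log2 change of each class less that of all genes, cold minus control, under 6 scalings of the arrays. The remodellers are the lowest class under each (-0.47 to -0.16), whereas the erasers cross 0 (-0.23 to 0.05).

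The 9 readers and scaffolds had a median change of 0.02, with 4 lower and 5 higher. The count lower was 7 with processed intensities, 7 with median centring, 9 with Cy3 alone and 5 in the deposited table. Below the median of all genes under the same scaling lay 4 in the main setting and 7, 4, 6 and 5 under those scalings. With median centring the class median was 0.04 above that of all genes. The class held 2 of the 3 members with an unadjusted p under 0.01. EPC1, a scaffold subunit of the NuA4 complex that contains KAT5, had control ratios from 0.02 to 0.24 with a median of 0.16, and cold ratios of -0.16, -0.17, -0.17 and -0.08. The groups did not overlap, and cold replicate 4 was nearest to the control arrays. The means were 0.13 ± 0.09 and -0.14 ± 0.04, 1.21-fold lower in the cold (limma adjusted p = 0.083, exact permutation p = 0.00476), and the 2 target sequences had changes of -0.32 (SE 0.09) and -0.23 (SE 0.07).

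EPC2, the paralog of EPC1 in the same complex, had a change of 0.02 (SE 0.10), with 5 of 12 probes lower. Its sign was not stable: over 22 alternative settings the change of EPC2 ran from -0.40 to 0.07 and was below 0 in 7. Within each array, EPC1 less EPC2 was -0.28 to 0.13 in control and -0.67 to -0.22 in cold, so that the groups overlapped in this difference. Side by side, the 3 members of the NuA4 complex had changes of -0.27 (EPC1), 0.02 (EPC2) and 0.35 (KAT5).

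ARID4B encodes a DNA-binding subunit of the SIN3 co-repressor, which brings deacetylases to genes. Its control ratios spread from -0.29 to 0.45 with a median of 0.04, and its cold ratios were -0.44, -0.44, -0.36 and -0.66. All cold arrays were below all control arrays, the nearest pair being control replicate 3 and cold replicate 3. The means were 0.07 ± 0.31 and -0.48 ± 0.13, which is 1.46-fold lower in the cold (change -0.55, SE 0.15, limma adjusted p = 0.0936, exact permutation p = 0.0143).

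The unadjusted p of ARID4B was under 0.01 in 14 of 22 alternative settings, against 21 for KDM5B and 20 for EPC1, and its highest was 0.0239. All 12 probes of ARID4B were lower, by 0.40 to 0.76, and its 3 target sequences had changes of -0.55, -0.48 and -0.61. ARID4A, its paralog in the same co-repressor, had a change of 0.09 (SE 0.10). Within each array, ARID4B less ARID4A was -0.49 to 0.30 in control and -0.94 to -0.57 in cold, without overlap.

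ARID5B, a DNA-binding partner of a histone demethylase, had control ratios from -0.17 to 0.26 with a median of 0.06, and cold ratios of -0.51, -0.04, -0.11 and -0.35. Cold replicates 2 and 3 lay within the control range, and the change was -0.31 (SE 0.12, limma adjusted p = 0.146). Its unadjusted p was above 0.05 without cold replicate 1 (change -0.23) or cold replicate 4 (-0.28). The bromodomain readers BRD1 and BRD2, which bind histones, had changes of 0.11 (SE 0.11) and -0.02 (SE 0.09), and ARID3B and ARID3C of 0.11 (SE 0.08) and 0.05 (SE 0.09).

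Partner genes outside the list were taken by complex, and 79 of 151 were measured. Of these, 49 were lower and 30 higher, with a median change of -0.05, and 5 (6.33%) were lower at an unadjusted p under 0.01 against 0 higher, where 3.43% of all genes were lower and 5.21% higher. At an unadjusted p under 0.05, 15 (19.0%) were lower and 4 higher, beside 12.5% and 12.2% of all genes, and 0 passed the adjusted threshold. The 5 lower ones were EZH1 and BMI1 of the Polycomb complexes, which keep genes silent, JADE1, a subunit of acetyltransferase complexes, the DNA methyltransferase gene DNMT3A and the remodeller gene ATRX.

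The changes of EZH1 and BMI1 were -0.55 (SE 0.12) and -0.39 (SE 0.08), with limma adjusted p of 0.0688 and 0.0705. Those of JADE1, DNMT3A and ATRX were -0.51, -0.46 and -0.37 (SE 0.12 each), with adjusted p of 0.0736, 0.0872 and 0.113. The methyltransferases and their subunits had 13 lower and 3 higher of 16 measured (median -0.13), the acetyltransferase complexes 15 and 12 of 27 (median -0.03) and the deacetylase co-repressors 3 and 5 of 8 (median 0.04). Other remodellers had 9 lower and 3 higher of 12, with a median of -0.05, and the SWI/SNF subunit gene DPF2 among them was higher by 0.22 (SE 0.08, limma adjusted p = 0.145). The other SWI/SNF subunit genes of that list had changes of 0.14 (DPF1), -0.08 (SS18), -0.05 (BICRAL) and 0.00 (ACTL6A and BCL7C). Polycomb repressive complex 1 had 6 lower and 4 higher of 10 (median -0.06), the other erasers 2 and 1 of 3 and the DNA methylation genes 1 and 2 of 3.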

How the data were processed

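The authors deposited, for each of 10 arrays, the spot intensity and its local background in both channels as written by Agilent Feature Extraction, together with intensities processed by that software, and a table with 1 log2 value for each target sequence and array, whose normalization steps are not given in the sources used here. From the deposited spot intensities, the background was corrected with normexp (offset 50) and the log2 ratios were normalized by loess (span 0.3, 4 iterations) in limma 3.58.1 under R 4.3.3. Spots called outliers were left out, spots were averaged per probe and probes per gene. Probes needed Cy3 well above background in a share of 0.5 or more of their spots, on 4 arrays or more, and 2 genes with a missing value were left out. The RefSeq gene table named 21104 of 45328 target sequences.

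Cold and control were compared with limma (lmFit and eBayes), adjusted by Benjamini-Hochberg over 26303 genes, and single genes also with a two-sided exact permutation test over 210 splits of the arrays. The 2 groups hold 6 and 4 arrays, which limits the precision of each value. Between 50.4 and 63.5% of spots were well above background in Cy3, and 27.0 to 64.0% in Cy5. All arrays were scanned on 1 day on separate slides, so neither could be fitted as a block. Control replicates 3 and 5 and cold replicates 3 and 4 were at slide position 2, and all others at position 1. The members, their classes and the partner and marker lists were chosen with earlier results of these data known. Members were named where listed in the paper's tables (KAT6B, EPC1) or their paralogs, at an unadjusted p under 0.01, or, in each class, for the 3 lowest p and the largest change in each direction. Other members and partner genes were named with their values after these were seen. The alternatives were other background corrections, normalizations, filters and summaries, Cy3 alone, the deposited table, the methods' t-test, target sequences as features, slide position and replicate number as blocks, array weights, and each array left out.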

Additional observations from a re-analysis of the deposited data

Results flagged for a closer look

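For 2 of 42 groups of values examined, 1 array stood apart from the rest of its group by Dixon's test, that is 4.76%, and chance flags about 1 in 20 groups. The log2 ratio of EPC1 in cold replicate 4 was -0.0840, while the other cold arrays lay between -0.17 and -0.16, and it was the cold array nearest to the control range. The array score of the erasers in cold replicate 3 was 0.129, above the other cold arrays at -0.03 to -0.01.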

How the results depend on the processing

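The count of members lower at an unadjusted p under 0.01 (3) was 5 with processed intensities, no background subtraction, Cy3 alone, no filter on dim probes and the median over probes. It was 6 with median centring, 1 with the replicate block and 2 to 4 with an array left out. With target sequences as features, 5 of the 104 sequences of members were lower, belonging to KDM5B, EPC1 and ARID4B. The share over all target sequences is not given here. The share of all genes lower at that threshold (3.43%) was 3.29% with processed intensities, 3.63% without background subtraction, 3.60% with median centring, 4.36% with Cy3 alone, 2.91% without the filter, 3.47% with the median over probes, 4.23% with the replicate block and 1.81 to 7.19% with an array left out. The count higher (0) was 1 with Cy3 alone and with array weights and 0 to 1 with an array left out (1 without cold replicate 2, KAT5), where 5.48%, 5.75% and 3.03 to 7.05% of all genes were higher. The count at an adjusted p under 0.05 (0) was 1 with Cy3 alone (KAT6B), where 2.82% of all genes passed, and 0 to 1 with an array left out (1 without cold replicate 2, where 4.84% of all genes passed). The median change of all members was -0.17 with processed intensities, -0.70 with median centring, -0.14 with Cy3 alone and -0.23 in the deposited table. In the same order it was -0.17, -0.75, -0.13 and -0.25 for writers. For erasers it was -0.16 (processed), -0.64 (median centring) and -0.22 (deposited), and for remodellers -0.26, -0.90 and -0.46. With Cy3 alone it was -0.0156 for erasers, of turned sign, and -0.21 for remodellers. With an array left out the median ran from -0.03 to 0.00 for all members, -0.07 to 0.01 for writers, -0.0007 to 0.06 for erasers and -0.20 to -0.10 for remodellers. Among the 16 named genes, changes of sign with processed intensities were ARID3B (-0.15), EPC2 (-0.40), KDM6A (-0.21) and SMARCAL1 (-0.0795). With median centring they were ARID3B (-0.12), EPC2 (-0.25), KDM6A (-0.11), KDM8 (-0.19) and SMARCAL1 (-0.47). They were ARID3B (-0.0540) and EPC2 (-0.0133) with Cy3 alone, and SETD4 (0.0585), SMARCAD1 (0.19) and SMARCAL1 (-0.0827) in the deposited table. Of all 43 members, 23 had a change below 0 in the main setting and 32, 36, 30 and 29 with those scalings in turn. Members that are not among the named genes thus turned as well. EPC2 was also -0.0248 without background subtraction, -0.0130 with slide position as a block and -0.0745 to 0.0727 with an array left out (below 0 without control replicate 2 or cold replicate 3). Over 16 named genes and 22 settings, 303 of the values kept both sign and side of the threshold. The cause of these differences was not tested. The arrays share only replicate numbers (correlations of deviations -0.30, 0.54, 0.10 and -0.19), so the replicate block, with KDM5B (-0.34), EPC1 (-0.27) and ARID4B (-0.56) then at a p above 0.01, does not describe a pairing. With the filter on all 10 arrays 42 of the 43 members were measured, and KDM5C, whose probes were well above background on 5 to 9 arrays, was lost.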
